A study of Homo sapiens with 5 samples.

Results

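Potassium channel genes were examined in NCI-H209, an established human SCLC (small-cell lung cancer) cell line, kept alone or co-cultured with HBMECs (human brain microvascular endothelial cells). Members were the entries of the gene name table whose symbol was KCN, then letters, a number and at most 1 further letter, with no antisense or pseudogene names. The rule found 82 entries with 81 distinct names, since 1 name was listed a second time as an entry without a chromosome, out of 64837 entries of the count tables. They were 34 voltage-gated channel genes (Kv), 14 inward rectifier genes (Kir), 11 two-pore-domain genes (K2P), 8 genes of the calcium-activated and SLO families, and 15 genes of auxiliary subunits. Another 15 annotated genes with such symbols were not in the name table, and none of them exceeded 1 count in a library.

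The 3 control libraries came from untreated NCI-H209 cells. The 2 co-cultured libraries came from NCI-H209 cells that had shared a Transwell chamber with HBMECs for 24 h. There a porous membrane kept the HBMECs of the insert apart from the tumor cells in the well, and soluble factors could pass. All 5 libraries were of 1 cell line in medium with serum, made from RNA depleted of rRNA with a directional kit, and the comparison addressed how endothelial cells of the brain change the transcriptome of tumor cells. No source used here says that the libraries of a group came from separate cultures, so the p-values measure the spread between these libraries, which may be technical.

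As background, potassium channels let K+ leave or enter the cell along its electrochemical gradient and so set the resting potential, shape action potentials and bear on cell volume and secretion. Kv channels open on depolarization, Kir channels pass current best at negative potentials, K2P channels carry leak current, and the SK, IK and BK channels open when intracellular calcium rises. Auxiliary subunits form no pore of their own and tune the channels to which they bind. SCLC is a neuroendocrine tumor whose cells are electrically excitable, and ion channels are among the genes it shares with neurons.

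The pore of each such channel holds a short selectivity filter that sorts K+ from Na+. The codons of that filter were searched for in the coding sequence of each named member, as a serine or threonine, a valine, isoleucine or leucine, a glycine, a tyrosine, phenylalanine or leucine, and a glycine. They were found in 65 of 81 genes, that is in 33 of 33 Kv, 14 of 14 Kir, 10 of 11 K2P and 8 of 8 calcium-activated and SLO genes and in 0 of 15 auxiliary genes. More than 1 match was found in 8 K2P genes, while KCNK1 and KCNK15 gave 1 each and KCNK7 none. A filter written in other letters is missed by this search, so a missing match does not mean a missing filter. Stretches of 39 bases are shown for the member with the highest level, for paralogs that moved in opposite directions below, and for KCNT2, the called member with the highest level outside the Kv group, with the 15 bases of the filter codons in capitals. All lie in coding exons of GRCh38 and are written 5′ to 3′ on the strand of the gene.
KCNA1 (chr12:4912480-4912518, plus strand): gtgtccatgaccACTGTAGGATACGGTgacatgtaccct
KCNH6 (chr17:63535981-63536019, plus strand): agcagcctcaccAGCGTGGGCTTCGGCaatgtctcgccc
KCNH7 (chr2:162435247-162435285, minus strand): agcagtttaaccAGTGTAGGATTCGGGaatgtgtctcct
KCNJ5 (chr11:128911706-128911744, plus strand): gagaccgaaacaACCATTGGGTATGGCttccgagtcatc
KCNJ6 (chr21:37714677-37714715, minus strand): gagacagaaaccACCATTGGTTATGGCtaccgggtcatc
KCNN3 (chr1:154733048-154733086, minus strand): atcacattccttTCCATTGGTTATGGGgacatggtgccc
KCNN4 (chr19:43772045-43772083, minus strand): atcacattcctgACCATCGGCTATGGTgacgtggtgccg
KCNT2 (chr1:196429646-196429684, minus strand): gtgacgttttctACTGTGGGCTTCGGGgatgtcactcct
KCNJ5 and KCNJ6 had 34 of these 39 bases in common, KCNN3 and KCNN4 32, and KCNH6 and KCNH7 29. Outside their families the stretches were less alike, with 23 of 39 bases in common between KCNA1 and KCNT2 and 17 of 39 between KCNA1 and KCNJ5.

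Counts on genes totalled 15457071 to 19157348 per library, 30.7 to 33.6% of all reads. Unmapped reads were 8.13 to 8.48% in control and 15.9 and 16.8% in the co-cultured libraries, and their part in the results was not tested. Control 1 stood apart from the other controls, with 18 and 18.2 as the chi-square between libraries per degree of freedom, against 6.39 for controls 2 and 3 and 4.6 for the co-cultured pair. Of 11 neuroendocrine marker genes 10 were tested, with 4 called higher and 2 lower (beside 18.4% and 15% of all genes tested in the comparison described next), their summed level was 2390 to 2820 CPM (counts per 1000000 of the library, with TMM factors) in control and 3210 to 3280 CPM in co-cultured cells, and CHGA had at most 1 count. Of 14 endothelial marker genes 8 were tested and 1, ESAM, was called higher, at 0.16 to 0.307 CPM in control and 1.15 and 0.925 CPM in co-cultured cells. Their summed level was 9.88 to 19.8 CPM in control and 13.1 and 13.5 CPM in co-cultured cells, and CDH5 was at 0.205 to 0.585 and 0.383 and 0.727 CPM. In bulk RNA, fewer cells of a type and less RNA per cell cannot be told apart.

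Some potassium channel genes were higher and others lower in co-cultured cells, and in some families close paralogs differed in direction. How often paralogs of other families differ in this way was not tested. Of the 82 entries 54 passed the filter on low counts. In the quasi-likelihood test of edgeR, with p-values adjusted by Benjamini and Hochberg's method over 20360 genes and a threshold of 0.05, 15 were called higher and 10 lower in co-cultured cells and 29 were not called. The share called higher was 27.8%, beside 18.4% of all genes tested, and the share called lower was 18.5%, beside 15%. DEGs were taken by the study's thresholds for p and fold change, read here as an unadjusted p under 0.05 and an absolute log2 fold change above 1. By these, 9 members were upregulated (16.7%, beside 5.44% of all genes) and 4 downregulated (7.41%, beside 5.01%). They include KCNV1 (up) and KCNN2 (down), which passed the filter only through the group where they were higher, so that their direction is partly set by the filter. The median log2 fold change of the members tested was -0.07, beside -0.03 over all genes. The libraries of the groups did not overlap for 37 of 54 members (68.5%, beside 59.4% of all genes), including all 25 that were called. With upper-quartile normalization 12 were called higher and 14 lower, beside 3076 and 3929 of all genes (3750 and 3059 in the main run). Without control 1 they were 18 and 15, beside 5295 and 4602 of 19974 genes. On leaving out co-cultured 1 or co-cultured 2, with 1 co-cultured library left, fewer members and fewer genes in all were called. The median log2 fold change of the members was then -0.12 and -0.15.

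**Figure D1:**
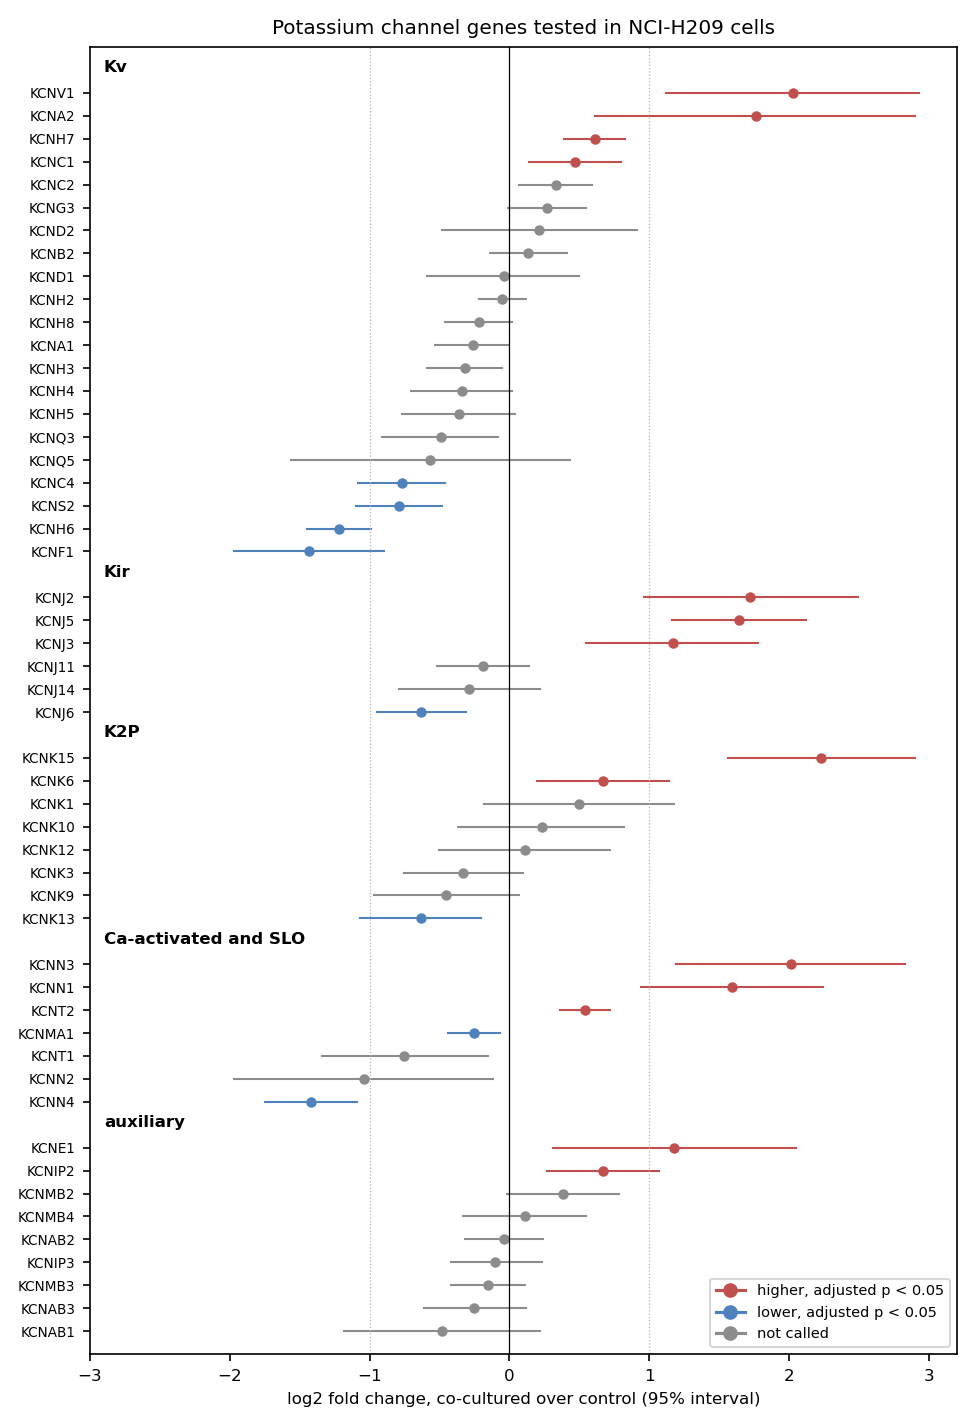
Log2 ratio of co-cultured to control cells (x axis) with its 95% interval for 51 of the 54 potassium channel genes tested, grouped by family and ordered by value, with dotted lines at a log2 fold change of -1 and 1. Of these, red points are the 14 genes called higher, blue points the 8 called lower and gray points the 29 not called, and red and blue occur together in each family except the auxiliary subunits.

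Levels between genes were compared as CPM per kb of exon, with all annotated exons of a gene joined. Ranks and shares of levels therefore depend on this length. KCNA1, the gene of a Kv channel that opens at low thresholds and restrains firing, had the highest level of all members at 53.9 CPM per kb over the 5 libraries. KCNH6 followed at 38.3, KCNB2 at 24.5, KCNT2 at 19.5 and KCNH2 at 13.6 CPM per kb, and the lowest member tested, KCNQ5, was at 0.0874 CPM per kb. These 5 highest members made up 60.2% ± 1.34 (SD, n = 3) of the summed level of all members among controls and 54.9% ± 2.38 (SD, n = 2) with co-culture. The summed level of all members was 274, 265 and 265 CPM per kb in control and 236 and 246 in co-cultured cells. Kv genes held most of it, at 202 ± 5.06 (SD, n = 3) and 166 ± 9.2 CPM per kb (SD, n = 2). The sum of the Kir genes was 13.2 ± 0.563 and 18.2 ± 0.42 CPM per kb, and that of the calcium-activated and SLO genes 24.5 ± 0.992 and 29 ± 0.441. The K2P sum overlapped between the groups, at 9.89 to 13.3 CPM per kb in control and 9.29 and 11.1 in co-cultured cells, and that of the auxiliary subunits nearly met, at 15.9 to 17 and 17.1 and 18.4. In order, KCNA1 stood above KCNH6 in every library, whereas KCNH6 stood above KCNB2 in each control library and below it in each co-cultured library.

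**Figure D2:**
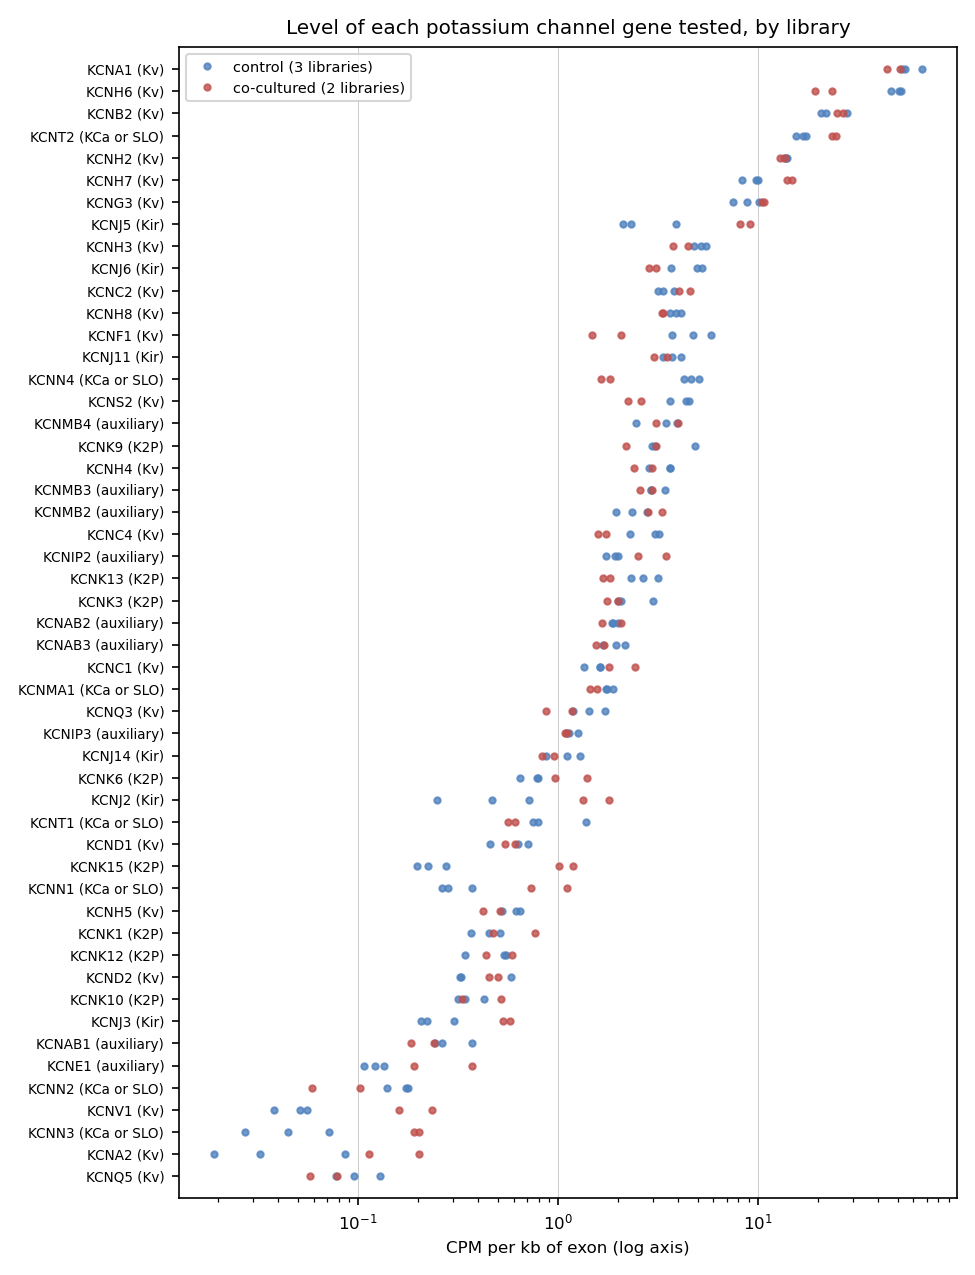
Level of 51 of the 54 members tested in each library, in CPM per kb of exon on a log axis, ordered by the mean of the 5 libraries, with control in blue (3 libraries) and co-cultured in red (2 libraries). Levels run from 53.9 CPM per kb for KCNA1 down to 0.0874 CPM per kb for KCNQ5, and most of the upregulated DEGs lie in the lower part of the order.

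Of 34 Kv entries 24 were tested, and their median log2 fold change was -0.24. Calls were 5 higher and 6 lower (20.8% and 25%, beside 18.4% and 15% of all genes tested). KCNA1 was at 527, 434 and 422 CPM in control and 355 and 412 CPM in co-cultured cells. All co-cultured values were below the controls, but the log2 fold change of -0.26 ± 0.12 (SE) was not called (adjusted p = 0.107, edgeR), except with upper-quartile normalization (-0.34, adjusted p = 0.0344) and with the filter of at least 1 count in any library (-0.27, adjusted p = 0.027). Another gene on the same strand, AC005906.2, overlaps KCNA1, and the effect of this overlap on its counts was not tested. KCNB2, which encodes a delayed rectifier, was at 99.6, 74.5 and 78.9 CPM in control and 89.4 and 95.8 CPM in co-cultured cells, and the groups overlapped. Its log2 fold change was 0.13 with a 95% interval of -0.14 to 0.41, and without control 1 it was 0.27 (adjusted p = 0.00207).

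The ether-a-go-go-related family, to which the cardiac repolarizing channel hERG of KCNH2 belongs, was expressed with all of its 3 genes and shifted in composition. KCNH6 was at 196, 218 and 213 CPM in control and 81 and 98.5 CPM in co-cultured cells. It fell in both co-cultured libraries to a fold of 0.429, a log2 fold change of -1.22 ± 0.10 (SE, adjusted p = 8.32e-05, edgeR), and was the downregulated DEG with the highest level. KCNH7 was at 41.4, 48.8 and 49.9 CPM in control and 69.2 and 73.9 CPM in co-cultured cells, and rose by a log2 fold change of 0.61 ± 0.10 (SE, adjusted p = 0.00163). KCNH2 was at 79.1, 82.6 and 81.4 CPM in control and 80.4 and 76.3 CPM in co-cultured cells. The groups of KCNH2 overlapped, and its log2 fold change was -0.05 with a 95% interval of -0.22 to 0.12. As shares of the family's CPM per kb, KCNH6 made up 68.1% ± 0.279 (SD, n = 3) among controls and 43.4% ± 3.24 (SD, n = 2) with co-culture, KCNH7 12.9% ± 0.643 and 29.3% ± 0.509, and KCNH2 19% ± 0.659 and 27.3% ± 2.74. KCNH6 and KCNH7 kept their calls in every alternative run, including each library left out. No test was made of the shares, since with 3 against 2 libraries an exact permutation test cannot give a two-sided p below 0.1.

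In the Kv3 family, whose fast channels repolarize cells that fire at high rates, KCNC4 and KCNC1 moved in opposite directions. KCNC4 was at 57.4, 79.7 and 76.1 CPM in control and 39.7 and 43.7 CPM in co-cultured cells, and fell by 0.77 on the log2 scale (adjusted p = 0.00295, edgeR). KCNC1 was at 19.5, 23.4 and 23.3 CPM in control and 35.1 and 26 CPM in co-cultured cells, and rose by 0.47 (adjusted p = 0.0337). KCNC2 was not called, at a log2 fold change of 0.33 (adjusted p = 0.0553). The calls of KCNC4 and KCNC1 were each lost in 1 or more alternative runs, while neither changed direction. KCNC4 was at -0.69 without co-cultured 1 (adjusted p = 0.0596). KCNC1 was at 0.24 without co-cultured 1 (adjusted p = 0.37), at 0.52 without control 2 or control 3 (adjusted p = 0.0532 and 0.0539), and at 0.39 with upper-quartile normalization (adjusted p = 0.0696).

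The electrically silent Kv subunits, which form no channel alone and modify other Kv channels, included both ends of the Kv range. KCNF1 was at 13.3, 10.9 and 8.5 CPM in control and 3.39 and 4.76 CPM in co-cultured cells, with a log2 fold change of -1.43 ± 0.24 (SE, adjusted p = 0.00206, edgeR), and it kept its call in every alternative. KCNS2 was at 19.5, 23.3 and 24.2 CPM in control and 12 and 13.9 CPM in co-cultured cells, and fell by 0.79 (adjusted p = 0.00256, and -0.68 with adjusted p = 0.0539 without co-cultured 1). KCNV1 had 5, 7 and 7 counts in the control libraries against 30 and 17 in the co-cultured pair, with a log2 fold change of 2.03 ± 0.40 (SE, adjusted p = 0.00492, and 1.72 with adjusted p = 0.0966 without co-cultured 1). KCNV1 passed the filter through the co-cultured group alone, so that it could hardly have been tested without being higher there. KCNG3, the silent subunit with the highest level, was at 28.7, 38.7 and 33.6 CPM in control and 40.1 and 41.2 CPM in co-cultured cells and was not called (0.27, adjusted p = 0.12).

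KCNA2, a partner of KCNA1 in heteromeric axonal channels, had 28, 6 and 11 counts in the control libraries against 36 and 53 in the co-cultured pair (log2 fold change 1.76 ± 0.51 SE, adjusted p = 0.0266, edgeR), and 27.6% of the reads at its locus lay on the opposite strand. Although the groups did not overlap, the call was lost on leaving out either co-cultured library, control 2 or control 3, with values from 1.30 to 2.14 (adjusted p = 0.0594 to 0.231).

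**Figure D3:**
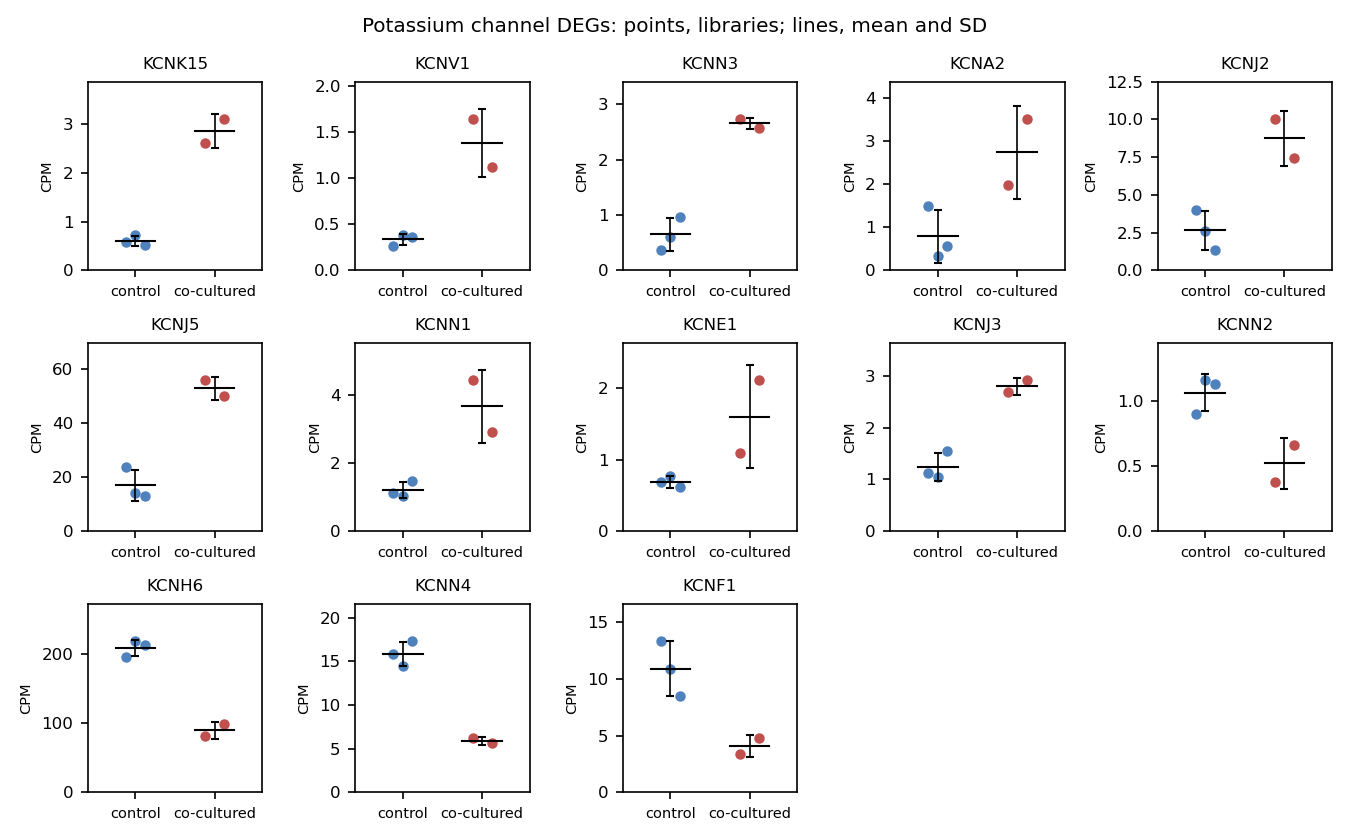
CPM in each library (y axis, from 0) for the 13 potassium channel DEGs, with control in blue (3 libraries) and co-cultured in red (2 libraries), and the mean and SD in black. In each panel the groups do not overlap, from KCNK15 with the largest rise to KCNF1 with the largest fall, and the spread of the co-cultured pair is widest relative to its mean for KCNE1, KCNA2 and KCNN2.

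Of 14 Kir entries 6 were tested, with a median log2 fold change of 0.49. Calls were 3 higher and 1 lower (50% and 16.7%, beside 18.4% and 15% of all genes tested). The G protein-gated channels, which couple receptors for acetylcholine, somatostatin and other ligands to hyperpolarization, included 3 of these 6 Kir genes. KCNJ5 was at 23.7, 14.2 and 13 CPM in control and 55.8 and 49.9 CPM in co-cultured cells. It rose 3.12-fold (log2 fold change 1.64 ± 0.21 SE, adjusted p = 5.93e-04, edgeR), kept its call in every alternative, and had the highest level of the upregulated DEGs. KCNJ3, whose product needs a partner subunit to reach the membrane, was at 1.12, 1.05 and 1.54 CPM in control and 2.68 and 2.91 CPM in co-cultured cells (1.17 ± 0.27 SE, adjusted p = 0.0104). KCNJ6 was at 73.5, 99.4 and 105 CPM in control and 57.2 and 62.2 CPM in co-cultured cells (-0.63 ± 0.14 SE, adjusted p = 0.00862). KCNJ5 thus went from 36.2% ± 12 (SD, n = 3) of the summed CPM per kb of these 3 genes to 70.9% ± 2.83 (SD, n = 2), and KCNJ6 from 60.7% ± 11.6 to 24.6% ± 2.4. These shares depend on the exon lengths, 6.11 kb for KCNJ5 and 20 kb for KCNJ6. DSCR4 overlaps KCNJ6 on the same strand, and the effect of this overlap on its counts was not tested. In CPM, without division by length, KCNJ6 stayed above KCNJ5 in every library. Control 1, where KCNJ5 was higher and KCNJ6 lower than in the other controls, lay nearer to the co-cultured libraries. The calls of KCNJ3 and KCNJ6 were lost without co-cultured 1 (1.24, adjusted p = 0.0682, and -0.57, adjusted p = 0.112) and without co-cultured 2 (1.11, adjusted p = 0.0825, and -0.69, adjusted p = 0.0592).

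KCNJ2, the gene of a strong inward rectifier that holds the resting potential near that of K+, was at 3.99, 2.6 and 1.38 CPM in control and 10 and 7.46 CPM in co-cultured cells. It rose 3.3-fold (log2 fold change 1.72 ± 0.34 SE, adjusted p = 0.0046, edgeR), and was at 1.5 without co-cultured 1 (adjusted p = 0.0674). KCNJ11, the pore of the ATP-sensitive channel that links metabolism to excitability, was at 11.9, 10.7 and 13.2 CPM in control and 9.73 and 11.2 CPM in co-cultured cells. The groups overlapped, and the log2 fold change of -0.19 had a 95% interval of -0.52 to 0.14.

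**Figure D4:**
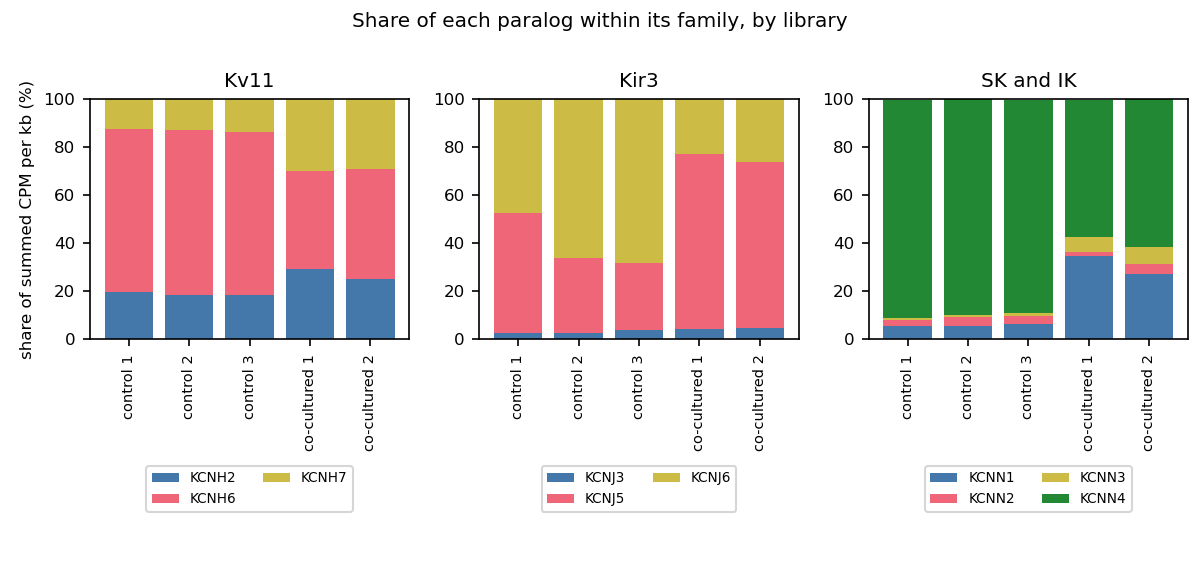
Share of each paralog in the summed CPM per kb of its family (y axis, percent) in each of the 5 libraries, for the ether-a-go-go-related genes (Kv11), the 3 tested G protein-gated genes (Kir3) and the SK and IK genes. In co-cultured libraries the share is lower for KCNH6, KCNJ6 and KCNN4 and higher for KCNH7, KCNJ5 and KCNN1 than in any control.

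Of 11 K2P genes 8 were tested, with a median log2 fold change of 0.17. Calls were 2 higher and 1 lower (25% and 12.5%, beside 18.4% and 15% of all genes tested). KCNK15, a relative of the acid-sensitive leak channels, had 11, 13 and 10 counts in the control libraries against 48 and 47 in the co-cultured pair. It showed the largest fold of all members tested, 4.69 (log2 fold change 2.23 ± 0.30 SE, adjusted p = 6.87e-04, edgeR), and kept its call in every alternative. At this locus 77.4% of reads lay on the opposite strand, where KCNK15-AS1 and RIMS4 overlap it, at 100, 91 and 61 counts in the control libraries against 121 and 70 in the co-cultured pair, and with unstranded counts the log2 fold change was 1.55. KCNK6 was at 4.89, 3.98 and 4.86 CPM in control and 8.58 and 5.95 CPM in co-cultured cells (0.67, adjusted p = 0.0351). KCNK13, a channel inhibited by halothane, was at 6.75, 5.86 and 7.94 CPM in control and 4.59 and 4.23 CPM in co-cultured cells (-0.63, adjusted p = 0.0334). Both of these calls were close to the threshold. KCNK6 was at 0.38 without co-cultured 1 (adjusted p = 0.342), 0.58 without control 2 (0.108) and 0.72 without control 3 (0.0627). KCNK13 was at -0.69 without co-cultured 1 (adjusted p = 0.136), -0.57 without co-cultured 2 (0.184) and -0.51 without control 3 (0.116). With the replicate block neither was called (adjusted p = 0.0516 for KCNK6 and 0.162 for KCNK13). KCNK6 was at 0.59 with upper-quartile normalization (adjusted p = 0.0525), and KCNK13 was at -0.62 by DESeq2 (adjusted p = 0.0516).

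The acid-sensitive leak channel genes KCNK9 and KCNK3 had, with KCNK13, the highest levels among K2P genes. KCNK9 was at 33, 20.7 and 20.1 CPM in control and 21 and 14.8 CPM in co-cultured cells, and its log2 fold change of -0.45 was not called (adjusted p = 0.163, edgeR). KCNK3 was at 18.5, 12.9 and 12.4 CPM in control and 12.4 and 10.9 CPM in co-cultured cells (-0.33, adjusted p = 0.211). In both genes control 1 was the highest library. With the replicate block KCNK9 was called lower (-0.57, adjusted p = 0.0148), as it was with the filter of at least 1 count in any library (-0.45, adjusted p = 0.00657).

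Of 8 calcium-activated and SLO genes 7 were tested, with a median log2 fold change of -0.25. Calls were 3 higher and 2 lower (42.9% and 28.6%, beside 18.4% and 15% of all genes tested). The SK and IK channels, which open when calmodulin bound to them takes up calcium, held both the largest rise and the largest fall of this group. KCNN4, the intermediate-conductance gene, was at 15.8, 14.5 and 17.3 CPM in control and 6.23 and 5.61 CPM in co-cultured cells, and fell to a fold of 0.374 (log2 fold change -1.42 ± 0.15 SE, adjusted p = 2.04e-04, edgeR). KCNN3, a small-conductance gene, had 7, 11 and 19 counts in the control libraries against 50 and 39 in the co-cultured pair, and rose 4.03-fold (2.01 ± 0.36 SE, adjusted p = 0.00308). Both calls held in every alternative that gave a value. KCNN1 had 21, 19 and 29 counts in the control libraries against 81 and 44 in the co-cultured pair, and rose 3.01-fold (1.59 ± 0.29 SE, adjusted p = 0.00308, and 1.26 with adjusted p = 0.0625 without co-cultured 1). KCNN2 had 17, 21 and 22 counts in the control libraries against 7 and 10 in the co-cultured pair. It was a DEG by the unadjusted p of 0.0309 and was not called (-1.04 ± 0.41 SE, adjusted p = 0.0789), except without control 1 (-1.15, adjusted p = 0.0363). KCNN2 passed the filter on low counts through the control group alone, so that its lower value in co-cultured cells is partly set by the filter. KCNN4 made up 90% ± 1.07 (SD, n = 3) of the family's CPM per kb in control and 59.4% ± 3.25 (SD, n = 2) with co-culture, and KCNN1 5.87% ± 0.585 and 31.1% ± 5.23.

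In the SLO family, KCNT2, a sodium-activated channel gene and the member with the highest level outside the Kv group, was at 110, 119 and 123 CPM in control and 166 and 175 CPM in co-cultured cells. It rose 1.45-fold (log2 fold change 0.54 ± 0.08 SE, adjusted p = 0.00122, edgeR) and kept its call in every alternative. KCNMA1, the large-conductance (BK) channel gene, was at 66.9, 62 and 63 CPM in control and 55.9 and 51.3 CPM in co-cultured cells. Its log2 fold change of -0.25 ± 0.08 (SE) was the smallest in size of those called (adjusted p = 0.0417). That call was lost without any library but control 1 (adjusted p = 0.0681 to 0.313 at values from -0.31 to -0.19), by DESeq2 (adjusted p = 0.091), with the replicate block (0.157), with unstranded counts (0.0902) and with the filter of at least 1 count in any library (0.0781).

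Of 15 auxiliary genes 9 were tested, and their median log2 fold change was -0.04. Calls were 2 higher and 0 lower (22.2% and 0%, beside 18.4% and 15% of all genes tested). KCNIP2, a calcium-binding partner of the transient Kv4 channels, was at 6.54, 6.8 and 5.94 CPM in control and 11.8 and 8.52 CPM in co-cultured cells (log2 fold change 0.67, adjusted p = 0.0184, edgeR). KCNE1, the partner of KCNQ1 in the slow cardiac current, had 13, 14 and 12 counts in the control libraries against 20 and 32 in the co-cultured pair (1.18 ± 0.39 SE, adjusted p = 0.0416). KCNQ1 itself had at most 3 counts and was not tested. The KCNIP2 value was 0.42 without co-cultured 1 (adjusted p = 0.231), 0.62 without control 3 (0.0607) and 0.60 with the replicate block (0.0681). The KCNE1 value was 0.66 without co-cultured 2 (adjusted p = 0.392), 1.27 without control 2 (0.0715), 1.11 without control 3 (0.098), 1.08 with the replicate block (0.107), 1.11 with upper-quartile normalization (0.0535) and 1.21 by DESeq2 (0.0906). KCNMB4, KCNMB3 and KCNMB2, beta subunits of the BK channel, had the highest levels of this group and none was called. KCNMB4 was at 12, 16.9 and 19.1 CPM in control and 19.5 and 15.1 CPM in co-cultured cells (0.11, adjusted p = 0.695). KCNMB3 was at 26.1, 30.7 and 26.1 CPM in control and 23.2 and 26.5 CPM in co-cultured cells (-0.15, adjusted p = 0.344). KCNMB2 was at 9.89, 8.35 and 6.91 CPM in control and 10 and 11.8 CPM in co-cultured cells (0.38, adjusted p = 0.132, and 0.52 with adjusted p = 0.0111 without control 1). At the loci of KCNMB3 and KCNMB2, 33.8% and 37.3% of reads lay on the opposite strand.

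The 20 tested members that were neither called, DEGs nor among the 3 highest of their group had log2 fold changes between -0.75 and 0.50 and adjusted p between 0.0553 and 0.909 (edgeR), and 4 of them had an unadjusted p under 0.05. They hold the remaining genes of the KCND, KCNH, KCNQ, KCNAB and KCNIP families that were tested, and KCNT1, the sodium-activated paralog of KCNT2, which was at 16.9, 9.12 and 9.73 CPM in control and 6.83 and 7.4 CPM in co-cultured cells (-0.75, adjusted p = 0.0565). KCNQ5, like KCNN2, passed the filter on low counts through the control group alone. The highest count of the 28 members not tested was 21, and 13 of them at most 3 counts in every library, the floor taken here (0.157 to 0.194 CPM, covering counting error only). They included 8 Kir genes, among them KCNJ9, the remaining G protein-gated gene, with at most 1 count. Ratios are given only for untested members at or under this floor in every library of 1 group and above it in every library of the other. That choice itself sets the ratios away from 1, so they are a description. KCNIP1 had 8, 5 and 21 counts in the control libraries against 1 and 1 in the co-cultured pair, a ratio of summed counts over library size of 0.0993 (95% exact interval of counting error 0.0116 to 0.387), and of 0.17 without control 3. KCNJ15 had 1, 2 and 0 counts in the control libraries against 8 and 7 in the co-cultured pair, a ratio of 8.44 (2.39 to 45.5), and of 17.2 without control 2 and 5.52 without control 3. At each of these loci 30.8% of reads lay on the opposite strand. DSCR8 overlaps KCNJ15 on the same strand, and the effect of this overlap on its counts was not tested. With the filter of at least 1 count in any library, KCNIP1 and KCNJ15 were the untested members that were called (-3.18, adjusted p = 0.00171, and 2.92, adjusted p = 0.0118, edgeR). KCNK2 and KCND3 had 2 to 3 counts in each co-cultured library, with ratios of 0.27 (0.0683 to 0.782) and 0.422 (0.141 to 1.06).

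Genes that act beside the channels were counted from 2 further lists. The 14 channel partners include the dipeptidyl-peptidase-like subunits of Kv4 channels and the sulfonylurea receptors, and 7 of them were tested, with a median log2 fold change of -0.08. Among these partners 1 was called higher and 0 lower, beside 18.4% and 15% of all genes tested. The gene called was NEDD4L, a ubiquitin ligase that acts on KCNQ channels, at 153, 163 and 165 CPM in control and 199 and 197 CPM in co-cultured cells (0.30, adjusted p = 0.0141, edgeR). ABCC8, the sulfonylurea receptor that pairs with KCNJ11, was not called (0.41, adjusted p = 0.0529). Of 35 other genes of potassium transport (cation channels, pumps, cotransporters and exchangers) 26 were tested, 8 were called higher and 6 lower, beside 18.4% and 15% of all genes tested, and their median was 0.20. TMEM38B, a K+ channel of the endoplasmic reticulum that balances calcium release, was at 55.2, 50.6 and 49.9 CPM in control and 101 and 103 CPM in co-cultured cells (0.97, adjusted p = 6.66e-05). SLC12A7, a K-Cl cotransporter, was at 47.9, 40.5 and 39.1 CPM in control and 96 and 90.5 CPM in co-cultured cells (1.13, adjusted p = 9.32e-05). The beta subunit of the Na,K pump ATP1B1 was at 110, 82.7 and 80.6 CPM in control and 188 and 188 CPM in co-cultured cells (1.05, adjusted p = 3.95e-04). The Na-K-Cl cotransporter SLC12A2 was called higher (0.76, adjusted p = 0.00114) and the K-dependent Na/Ca exchanger SLC24A1 lower (-0.64, adjusted p = 0.00113).

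Promoter windows, which were given for 58 of the 81 names, among them 11 of the 15 called higher and 7 of the 10 called lower, were searched on both strands for ACGTG, the core of the site bound by hypoxia-inducible factors, which also lies within the E-box CACGTG. In windows of 250 bases before to 50 bases after each start site, as given by RefSeq for GRCh38.p14, 20.7% of 87 windows of the members held it, beside 21.4% of all 35116 windows. It was in 3 of 20 windows of genes called higher and in 3 of 8 windows of genes called lower, beside 10 of 34 windows of tested genes not called. The 3 windows of genes called higher belonged to KCNE1 and KCNN3. A pair of paralogs that moved in opposite directions each had a window with ACGTG, as the stretches of 61 bases show with the match in capitals.
KCNN3 (chr1:154860029-154860089, minus strand, called higher): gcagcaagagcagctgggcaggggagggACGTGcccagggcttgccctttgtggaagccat
KCNN4 (chr19:43781125-43781185, minus strand, called lower): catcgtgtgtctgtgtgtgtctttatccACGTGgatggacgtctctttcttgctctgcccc
The match begins 185 bases before the start site of this window in KCNN3, whose windows at other start sites held none. In KCNN4 it begins 184 bases before the start site, where the letters form the E-box and so match on both strands. A match in letters is a description of the window, and binding was not measured.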

How the data were processed

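RNA-Seq counts of 5 libraries were used. The authors deposited gene counts as STAR writes them, for both strands together and for each strand, and the submitters' processing notes name CASAVA 1.8, STAR 2.6.1b, DESeq2 and GRCh38. The whole-number counts of 1 strand, that of the directional kit, were taken, on which 92.3 to 93.1% of the stranded counts lay, and no value of the deposited table of the authors' own comparison (fold changes and p-values) was used, only its gene names. Gene positions, exon lengths and coding sequences came from GENCODE 29, and promoters from RefSeq.

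In R 4.3.3, edgeR 4.0.16 filtered low counts (filterByExpr), scaled by TMM and tested each gene (glmQLFTest, no covariates), with Benjamini-Hochberg adjustment over 20360 genes. The script was tested on simulated data. CPM are counts per 1000000 of the library size times its TMM factor. Totals ran from 15457071 to 19157348 counts, and the biological coefficient of variation was 10.2%. Each standard error is the estimate (log2) over the root of its F statistic.

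Values are given for members called, for DEGs, and for the 3 members of each group with the highest CPM per kb. Of the lists without members, all counts and the called genes with the 5 smallest adjusted p are given. Some members that met this rule are counted but not reported here. KCNH2, KCNC2, KCNG3, KCNT1, the untested members and ABCC8 were added after their values were seen. The filter codons were first planned with threonine alone, and with tyrosine or phenylalanine between the glycines. Serine was added once the KCNH and SK genes had given no match. Leucine between the glycines was also added to the plan, and the only match of KCNK1 and 1 match of KCNK6 rest on it. The members and lists were chosen with earlier results of these data known. Alternatives were DESeq2 1.42.0, RLE and upper-quartile scaling, other filters on low counts, a replicate block, unstranded counts and each library left out. Leaving out libraries from the count ratios of untested members was chosen after seeing the data.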

Additional observations from a re-analysis of the deposited data

How the results depend on the processing

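Of the 25 called members 8 kept their call in each of the 12 alternatives that gave them a value and 17 in each of the 7 with all libraries that did so, and none reversed in any of the 12. Leaving out 1 control gave 10 to 18 called higher and 7 to 15 lower, beside 2879 to 5295 and 2150 to 4602 of all genes tested. Leaving out any 1 library gave a median log2 fold change of the members between -0.15 and -0.06. With all libraries the counts stayed within 1.5 times the main ones, at 12 to 16 higher and 9 to 14 lower. The median was -0.17 with at least 1 count in any library, -0.11 with at least 10 counts in every library, -0.16 with unstranded counts, -0.15 with upper-quartile normalization and -0.10 with the replicate block. Over all genes these medians were -0.08, -0.02, -0.04, -0.11 and -0.02. KCNMB2, not called, reversed with unstranded counts (-0.05), and KCNMB4, not called, reversed without co-cultured 1 (-0.08) and without control 1 (-0.05), with 0.29 as its highest value on leaving out a library. The cause was not tested.

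With the replicate block 12 members were called higher and 9 lower, beside 2771 and 2053 of all genes tested (3750 and 3059 in the main run). The numbers of the replicates did not pair the libraries by any source, and the deviations of same-numbered libraries correlated at -0.114 and -0.067. Deviations within the co-cultured pair mirror each other, so each control gave correlations of equal size and opposite sign with its members (-0.114 and 0.114 for control 1). These correlations therefore cannot decide whether same-numbered libraries belong together. Depth limits the low members, since a floor of 3 counts is 0.157 to 0.194 CPM, and most upregulated DEGs had fewer than 30 counts in a control library. A lone library left in the co-cultured group is assumed to vary like the controls.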

Other observations

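RNAs named after potassium channel genes as antisense or overlapping transcripts fall outside the members, and 4 of 18 were tested. KCNMB2-AS1 was at 15, 21.3 and 19.4 CPM in control and 9.67 and 9.84 CPM in co-cultured cells, and was called lower (log2 fold change -0.93 ± 0.16 SE, adjusted p = 0.00283, edgeR), beside 0.38 for KCNMB2 (adjusted p = 0.132). KCNQ1OT1, an imprinted RNA read against KCNQ1, was at 250, 373 and 347 CPM in control and 334 and 274 CPM in co-cultured cells (-0.09, adjusted p = 0.709), while KCNQ1 had at most 3 counts. KCNJ2-AS1 and KCNK15-AS1 were not called (1.13, adjusted p = 0.17, and 0.45, adjusted p = 0.396). Of the members tested 6 had more than 25% of the reads of their locus on the opposite strand, with KCNAB1 at 92.2% and KCNK12 at 89.1%.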
